A study of Solanum lycopersicum with 2 samples.

Results

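Terpene synthases turn prenyl diphosphates into the volatile and non-volatile terpenes of plants, and 5 loci carrying a terpene synthase symbol were followed here in tomato leaf. They were every locus of the expression table whose gene reference holds the letters TPS followed by a number alone, with no condition on level: TPS7, TPS17, TPS21, TPS24 and TPS41, among 17803 loci with a gene. RNA came from young primary leaves of tomato (Solanum lycopersicum) seedlings, in 1 library of wild-type plants (CK-1) and 1 library of plants overexpressing SlRBZ (OV-5-1). The series title links the transgene to yellow, short plants through chlorophyll, carotenoid and gibberellin synthesis. The labels do not give the promoter of the transgene, the cultivar, the plant age beyond the seedling stage or the number of plants pooled, and they do not say whether OV-5-1 is a single transgenic line. Although the design text speaks of duplicates, 1 library per genotype was analysed here, so no difference below has a replicate check or a test.

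In tomato, monoterpene synthases work mostly in plastids on geranyl or neryl diphosphate from the methylerythritol phosphate (MEP) pathway, whereas sesquiterpene synthases of the cytosol use farnesyl diphosphate. Many of these genes are known for their activity in the glandular trichomes, the secreting hairs of the leaf surface. A separate branch, to which ent-kaurene synthase belongs, serves gibberellin synthesis. The genes often stand in groups along the chromosome, and the best known group, on chromosome 8, also holds cis-prenyltransferases that make the unusual cis substrates of its synthases. In a whole leaf, fewer cells of a type and less RNA per cell cannot be told apart.

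Values are deposited FPKM, fragments scaled to the length of the locus and the size of the library, and all 5 loci were above 0 in both libraries. Sparse loci stepped by single fragments, from which the total used for scaling was read. It was 7.46 M (mega) fragments in wild type against 14.2 M in the overexpressor. Whether these totals equal the sequencing depth was not tested. Intervals in brackets are 95% exact Poisson intervals at an assumed effective length of 1 kb, and they cover counting error only. Mesophyll markers, 12 loci of Rubisco small subunits and light-harvesting proteins, were present in both libraries. They ranged from 29.2 to 121997 FPKM in wild-type leaf and from 11.7 to 18085 FPKM in the overexpressor. As deposited, 12 of 12 were at least 2-fold lower in the overexpressor, beside 15.0% of gene loci with a mean FPKM of 1 or more. At equal sums without the 100 most abundant gene loci 11 were lower, beside 6.4% of gene loci. At equal sums of all loci 1 was lower and 2 were higher, beside 0.29% and 94.7% of gene loci.

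In wild-type leaf TPS41 was the most abundant of the 5 loci, at 60.5 FPKM (55.0 to 66.3). TPS24 followed at 23.9 FPKM (20.5 to 27.6), then TPS7 at 11.8 FPKM (9.46 to 14.5). TPS21 read 3.38 FPKM (2.17 to 4.95) and TPS17 read 1.15 FPKM (0.552 to 2.29). The intervals of TPS21 and TPS17 overlapped, while those of the other neighbours in this order did not. TPS41 and TPS24 stood above the median of 15.8 FPKM over all gene loci with a mean FPKM of 1 or more, at percentiles 80.2 and 61.9 of all gene loci. TPS7, TPS21 and TPS17 stood below it, at percentiles 42.2, 15.0 and 5.99.

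The overexpressor showed a narrower range with TPS41 again on top. TPS41 read 25.5 FPKM (23.0 to 28.3) and TPS24 read 18.7 FPKM (16.6 to 21.1). TPS21 at 5.89 FPKM (4.70 to 7.30) and TPS7 at 5.10 FPKM (4.02 to 6.44) had exchanged places, with overlapping intervals. TPS17 was again the lowest at 2.72 FPKM (1.95 to 3.74). The highest locus exceeded the lowest 52.4-fold in wild-type leaf and 9.38-fold in the overexpressor. The 5 loci summed to 101 FPKM in wild-type leaf and 58.0 FPKM in the overexpressor, and without TPS41 to 40.3 and 32.4 FPKM, so most of the gap between the sums was TPS41. As a share of the FPKM of all gene loci the 5 went the other way, at 0.00206% in wild type and 0.00248% in the overexpressor. TPS41 held 60.0% of the sum in wild-type leaf and 44.1% in the overexpressor.

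**Figure D1:**
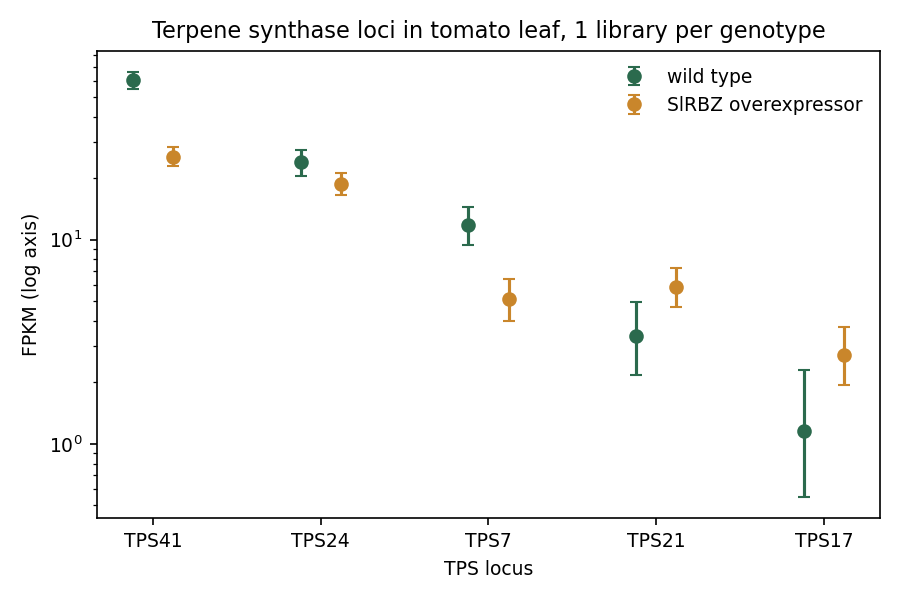
FPKM as deposited (log axis) of the 5 TPS loci in the wild-type and SlRBZ overexpressor libraries, 1 library each, with 95% Poisson intervals at an assumed effective length of 1 kb, which cover counting error only. TPS41, TPS24 and TPS7 are lower in the overexpressor, TPS21 and TPS17 are higher.

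Differences were taken as log2(FPKM + 1), overexpressor minus wild type, and a locus was called at 2-fold or more on that scale, which understates the change of low loci. TPS7 and TPS41 were called lower and none of the 5 was called higher. Over 17631 gene loci with a mean FPKM of 1 or more, 15.0% were called lower and 11.6% higher. With so few loci, 2 of 5 lower cannot be set apart from that background, and the median difference of the 5 loci, −0.34, lay between the quartiles of all gene loci (−0.60 and 0.47, median −0.05).

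These calls depended on how the libraries were scaled to each other, which also moved the median of all gene loci, to 0.18 at equal upper quartiles, 0.56 at equal sums without the 100 most abundant gene loci and 2.58 at equal sums of all loci. At equal upper quartiles TPS7 differed by −0.85 and TPS41 by −0.96, both under 2-fold. At equal sums without the 100 most abundant gene loci they differed by −0.49 and −0.56, while TPS17 (1.21) and TPS21 (1.19) were called higher. On that scale 27.1% of gene loci were called higher and 6.4% lower. At equal sums of all loci, a scale on which 94.7% of gene loci were called higher, all 5 were called higher. Relative to the median of all gene loci, TPS7 was lower by 1.03 to 1.08 log2 units and TPS41 by 0.95 to 1.16 over the deposited values and these 3 scalings. TPS24 lay below that median and TPS21 above it on all 4 scales, and TPS17 above it on all but equal sums of all loci, where it lay at the median.

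**Figure D2:**
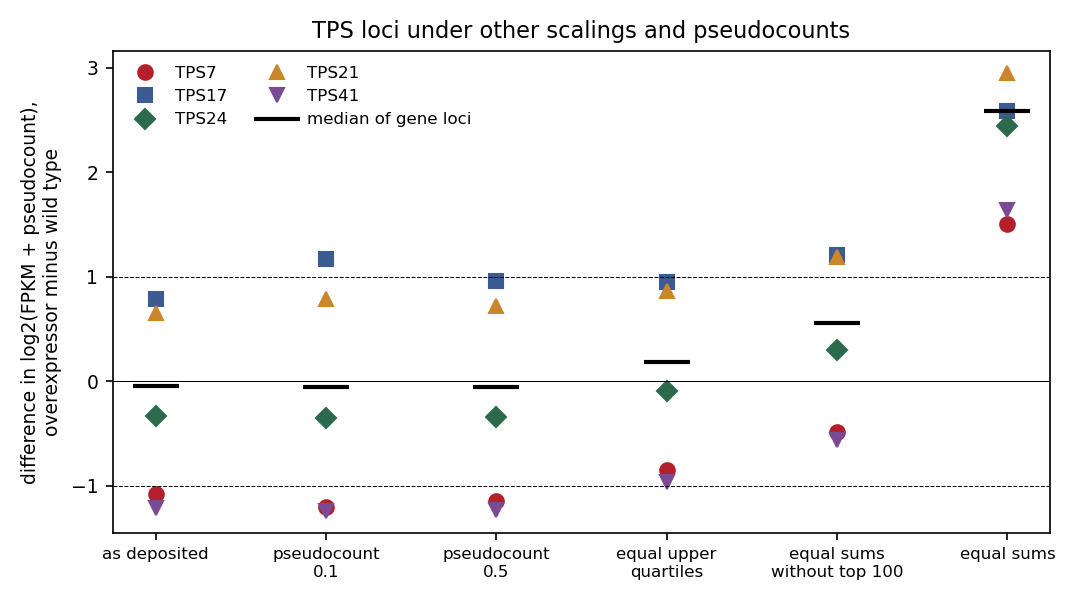
Difference in log2(FPKM + pseudocount), overexpressor minus wild type (y axis), of the 5 TPS loci as deposited (pseudocount 1), at 2 other pseudocounts and under 3 scalings (x axis), with the median of 17631 gene loci as a black bar and 2-fold as dashed lines. TPS7 and TPS41 lie below the bar in every column, while their distance from 0 follows the scaling, from −1.08 and −1.21 as deposited to 1.505 and 1.64 at equal sums of all loci.

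TPS41 (chromosome 8, 564452 to 570966, plus strand) differed most, by −1.21 or 2.32-fold. The plain ratio of its FPKM, wild type over overexpressor, was 2.37, with an exact conditional counting interval of 2.06 to 2.72. Of the 17631 gene loci with a mean FPKM of 1 or more, 11.2% had a more negative difference.

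TPS7 (chromosome 1, 85716448 to 85719019, plus strand), a member of the monoterpene synthase group of that chromosome, differed by −1.08 or 2.11-fold. Its plain ratio, wild type over overexpressor, was 2.33, with a counting interval of 1.67 to 3.18, which reaches below 2-fold. TPS7 and TPS41 kept nearly the same proportion to each other: TPS7 stood at 0.196 of TPS41 in wild-type leaf and at 0.1996 in the overexpressor. This proportion does not depend on how the libraries are scaled to each other.

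TPS24 (chromosome 7, 65260006 to 65266324, minus strand) is the ent-kaurene synthase of tomato, which closes the ring system on the way to gibberellins. It differed by −0.34 and was not called. Its plain ratio, wild type over overexpressor, was 1.28, with a counting interval of 1.05 to 1.54. Next to TPS41, TPS24 was 1.86-fold higher in the overexpressor than in wild type (counting interval 1.46 to 2.37), again whatever the scaling.

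TPS17 (chromosome 12, 1067723 to 1072118, plus strand), a sesquiterpene synthase, and TPS21 (chromosome 8, 504959 to 586720, plus strand), which makes a diterpene from a cis-prenyl diphosphate, had values in the other direction. TPS17 differed by 0.79, and its plain ratio, overexpressor over wild type, was 2.36 (counting interval 1.08 to 5.33). At 1 kb its values stand for 9 fragments in wild-type leaf and 39 in the overexpressor. TPS21 differed by 0.65, with a plain ratio of 1.74 (1.11 to 2.87). Its locus also covers a second gene and encloses TPS41, so this value is not that of TPS21 alone. Neither TPS17 nor TPS21 was called 2-fold on the log2(FPKM + 1) scale. On the plain scale TPS17 passed 2-fold, with an interval that reaches almost to equal levels.

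Ratios between members show the same split free of any scaling. Those with TPS21 are for its whole locus, not for TPS21 alone. TPS17 relative to TPS41 was 5.59-fold higher in the overexpressor than in wild type (counting interval 2.51 to 12.8), and TPS21 relative to TPS41 was 4.13-fold higher (2.57 to 6.93). TPS17 relative to TPS21 differed 1.35-fold, with an interval of 0.520 to 3.44 that includes no difference. TPS7 relative to TPS41 differed 1.02-fold (0.720 to 1.46). TPS24 lay between these pairs: relative to it, TPS7 was 1.82-fold lower in the overexpressor (1.24 to 2.65), and TPS21 was 2.23-fold higher (1.35 to 3.80).

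**Figure D3:**
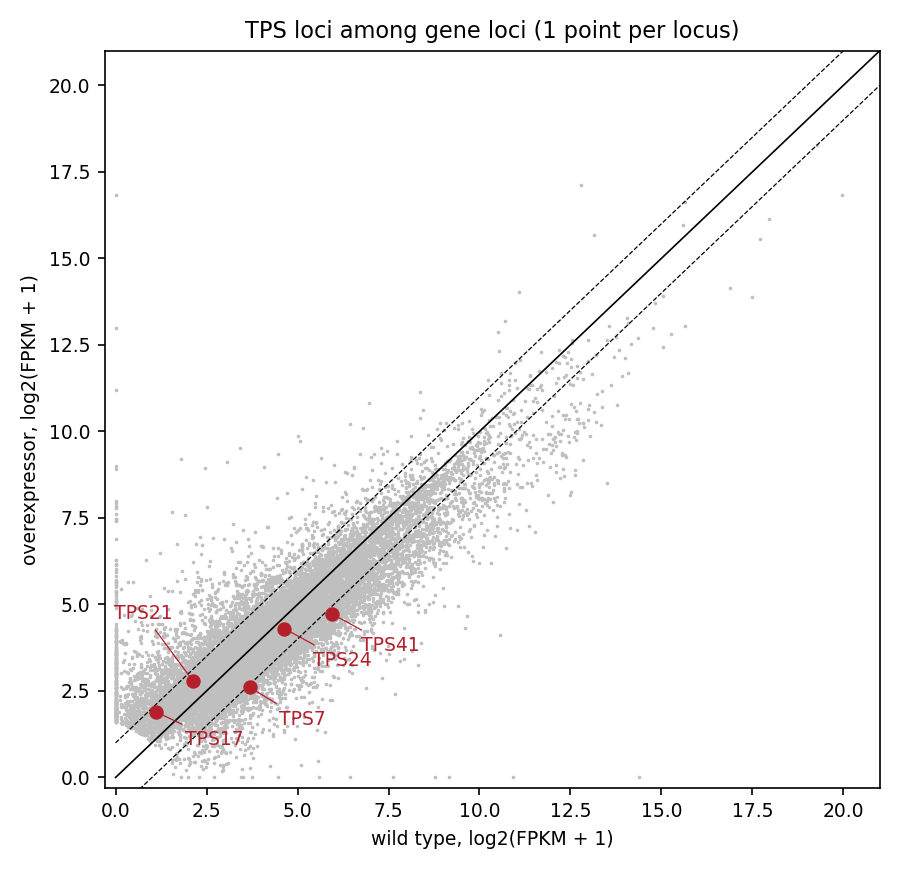
Levels of 17631 gene loci (grey) and of the 5 TPS loci (red) in wild type (x axis) and in the overexpressor (y axis), both as log2(FPKM + 1), 1 point per locus. The solid line marks equal levels and the dashed lines 2-fold, and of the TPS loci only TPS7 and TPS41 lie below the lower dashed line.

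By position the 5 loci lay on 4 chromosomes, 4 of them on the plus strand. Coordinates are those of the deposited table, whose genome build is not given in the sources used here, and the table marks locus spans only, without exons, introns or UTRs. With starts less than 200 kb apart taken as a cluster, TPS21 and TPS41 formed the only cluster among the 5. Of the 5, 4 lay within 2 Mb of an outer limit of the positions listed for their chromosome, and TPS24 was the last locus listed on chromosome 7. TPS7 lay 4.49 Mb from the last position of chromosome 1. Of 17532 gene loci with a mean FPKM of 1 or more on the numbered chromosomes, 23.3% lay within 2 Mb of such a limit. Within the 4.49 Mb that held all 5 TPS loci lay 45.5%. As TPS41 lies inside the TPS21 locus, the 4 are not separate positions. With so few loci the count cannot be set apart from that background.

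The chromosome 8 cluster was compact and nested. The TPS21 locus spanned 81.8 kb, joined TPS21 with a second gene, Solyc08g005720.2, and enclosed 4 other gene loci and 2 loci without a gene. TPS41 lay wholly inside it on the same strand, as did NDPS1 (530818 to 557653), the neryl diphosphate synthase whose product feeds monoterpene synthases of the trichome. The value of TPS21 is therefore that of 2 joined genes, and how the authors divided fragments between the enclosing and the enclosed loci is not given in the sources used here. In the reference gene table, the monoterpene synthase gene PHS1 lies within the span of NDPS1, listed there as CPT1. The expression table shows no locus by the name PHS1, and its NDPS1 locus spanned 26.8 kb. Whether the NDPS1 value includes fragments of PHS1 was not tested, so ratios to NDPS1 are ratios to that whole locus.

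Within this cluster the loci did not move together. The NDPS1 locus read 65.3 FPKM in wild-type leaf and 70.8 FPKM in the overexpressor, a difference of 0.11. In wild type TPS41 and NDPS1 were at similar levels, with a ratio of 0.925. In the overexpressor that ratio was 0.361, which is 2.56-fold lower (counting interval 2.14 to 3.06) and free of scaling. TPS21 relative to NDPS1 was 1.61-fold higher in the overexpressor (1.01 to 2.69).

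Loci of the minus strand inside the cluster differed from one another too. Solyc08g005690.1, whose locus of 0.411 kb ends 5.34 kb before TPS41, read 7.92 FPKM in wild-type leaf and 17.0 FPKM in the overexpressor, 2.02-fold higher. Solyc08g005670.2 read 23.2 and 19.1 FPKM. A locus without a gene, of 0.292 kb and lying across from NDPS1 on the minus strand, read 179 FPKM in wild-type leaf and 494 FPKM in the overexpressor, 2.75-fold higher. For Solyc08g005690.1 and this locus no counting interval was computed, and in loci this short each fragment adds much to the FPKM. The 2.02-fold of Solyc08g005690.1 lay at the limit of a call. Outside, Solyc08g005630.2, which ends 9.26 kb before the cluster, was abundant in both libraries at 4610 and 3011 FPKM. CYP707A2, an abscisic acid hydroxylase gene, read 1.42 and 2.60 FPKM.

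**Figure D4:**
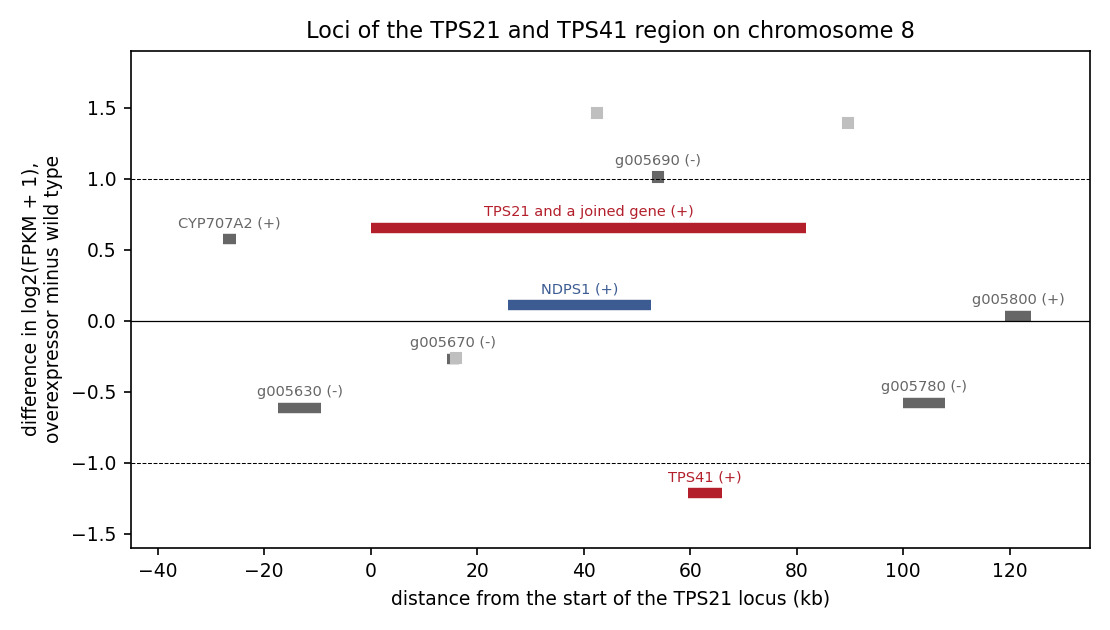
Difference in log2(FPKM + 1), overexpressor minus wild type (y axis), of each locus within 50 kb of the TPS21 locus, drawn to scale by its distance from the start of that locus in kb (x axis), with strand in brackets and identifiers shortened. TPS loci are red, NDPS1 is blue, other gene loci are dark grey and loci without a gene light grey, and spans under 1.5 kb are drawn as squares. TPS41 at −1.21 and the enclosing TPS21 locus at 0.65 lie on opposite sides of NDPS1 at 0.11.

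On chromosome 1 a named neighbour of TPS7 on the same strand was MTS1, a linalool and nerolidol synthase gene that the reference table pairs with the name TPS5. It lay 40.3 kb before TPS7 (85673319 to 85676126). MTS1 read 2.50 FPKM in wild-type leaf and 3.01 in the overexpressor, a difference of 0.20, so it did not share the lower value of TPS7. On the other side FBP, the nearest locus with a symbol at 37.2 kb and on the minus strand, read 70.6 and 29.6 FPKM, 2.34-fold lower. It was the only 1 of 8 gene loci within 50 kb of TPS7 to be called, and the median difference of the 8 was −0.56. Over all gene loci, 15.0% were called lower and 11.6% higher. In the reference table, TPS3, MTS2 (paired with TPS4) and MTS1 follow one another directly, and 2 genes separate MTS1 from TPS7. TPS3 and MTS2 were not shown by name in the expression table.

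TPS17 stood beside triterpene synthases, which act on oxidosqualene and belong to another enzyme family. TTS1, a beta-amyrin synthase gene 18.7 kb before TPS17, read 23.1 FPKM in wild-type leaf and 49.9 FPKM in the overexpressor, 2.11-fold higher. TTS2, its relative 32.1 kb before TPS17, read 8.94 and 4.51 FPKM, in the opposite direction and short of 2-fold. Between TTS1 and TPS17, the locus Solyc12g006540.1 read 63.6 and 518 FPKM, 8.03-fold higher, the largest difference among the neighbours of the 5 loci. It is given by identifier only and was singled out after its values were seen. All these loci lie on the plus strand. Of the 8 gene loci within 50 kb of TPS17, 2 were called higher and 1 lower, beside 11.6% and 15.0% of all gene loci. With so few loci these counts cannot be set apart from that background.

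Around TPS24, 1 of 5 gene loci within 50 kb was called, in the lower direction, beside 15.0% lower over all gene loci. It was Solyc07g066610.2 at 4145 FPKM in wild-type leaf and 704 FPKM in the overexpressor, 5.88-fold lower. The nearest locus, Solyc07g066660.2, ended 0.625 kb from TPS24 on the other strand and read 34.1 and 25.7 FPKM, a difference of −0.40 beside the −0.34 of TPS24.

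Other terpene synthases appear in the table under other names. The reference table holds 22 genes with a TPS number as symbol or synonym, of which 6 were shown by name in the expression table: TPS7, TPS17, TPS24, MTS1, CAHS and SLTPS1. TPS21 and TPS41 have no entry under those names there, and the other 16 genes were not analysed here. CAHS, the caryophyllene and humulene synthase gene paired with TPS12, read 9.70 FPKM in wild-type leaf and 4.74 FPKM in the overexpressor, a difference of −0.90. Its locus (chromosome 6, 34213417 to 34254456) joined 2 genes. With MTS1 and CAHS added, 2 of 7 loci were lower and 0 higher, beside 15.0% and 11.6% of all gene loci. SLTPS1 (chromosome 7, 1301353 to 1304574) read 2.39 and 21.3 FPKM, 6.57-fold higher. The letters TPS also name trehalose-phosphate synthases in plants, and as neither table gives its product it was counted with no group.

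Loci of precursor supply were matched from lists of pathway symbols, and for the MEP and the mevalonate list 9 of 13 symbols each were not found. Over gene loci with a mean FPKM of 1 or more, 15.0% were called lower and 11.6% higher as deposited. The shares were 6.4% and 27.1% at equal sums without the 100 most abundant gene loci, and 0.29% and 94.7% at equal sums of all loci. In the MEP pathway 3 of 4 loci found were called lower and 0 higher as deposited, 1 was lower at equal sums without the 100 most abundant gene loci, and 3 were higher at equal sums of all loci. Their median lay 1.08 to 1.33 log2 units below that of all gene loci on the 4 scales. The 3 lower as deposited were DXS, DXS2 and DXR. DXS (428 FPKM in wild type, 99.5 in the overexpressor) and DXS2 (69.4 and 26.5) encode the entry enzyme. DXR (299 and 113) encodes the reductoisomerase that follows. ISPE, a kinase of the pathway, read 80.6 and 42.0 FPKM. In the mevalonate pathway of the cytosol 0 of 4 loci was called as deposited, 1 was higher at equal sums without the 100 most abundant gene loci, and 4 were higher at equal sums of all loci. HMGR1 read 22.5 and 16.2 FPKM, HMG2 1.67 and 3.29, HMGS 4.77 and 2.87, and MDC 14.2 and 13.9. The median difference was −1.38 in the MEP list and −0.24 in the mevalonate list, beside −0.05 over all gene loci, and the difference between the lists was not tested.

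Of 7 loci matched by the list of isomerases and prenyl diphosphate synthases, 2 were lower and 1 was higher as deposited. The shares over gene loci were 15.0% and 11.6%. At equal sums without the 100 most abundant gene loci 1 was lower and 2 were higher, beside 6.4% and 27.1% of gene loci. At equal sums of all loci 0 were lower and 6 higher, beside 0.29% and 94.7% of gene loci. The one higher as deposited was IPI on chromosome 5, an isopentenyl diphosphate isomerase gene, at 326 FPKM in wild-type leaf and 2263 FPKM in the overexpressor. IPI on chromosome 4 read 99.8 and 55.6 FPKM. GGPS2, a geranylgeranyl diphosphate synthase gene, read 15.2 and 4.90 FPKM and was 2.75-fold lower. FPS1, the farnesyl diphosphate synthase gene that serves sesquiterpenes, read 67.3 and 46.7 FPKM, and GPS, named for geranyl diphosphate, 29.4 and 44.6 FPKM. The other lower locus, SPS, read 124 and 29.9 FPKM, but that symbol also stands for sucrose-phosphate synthase, so its place in the list is uncertain. Other users of the same diphosphates, PSY1, PSY2 and GGR, were all at least 2-fold lower, from 2.77-fold to 4.02-fold, while 1 of 3 was lower at equal sums without the 100 most abundant gene loci and 2 were higher at equal sums of all loci.

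**Figure D5:**
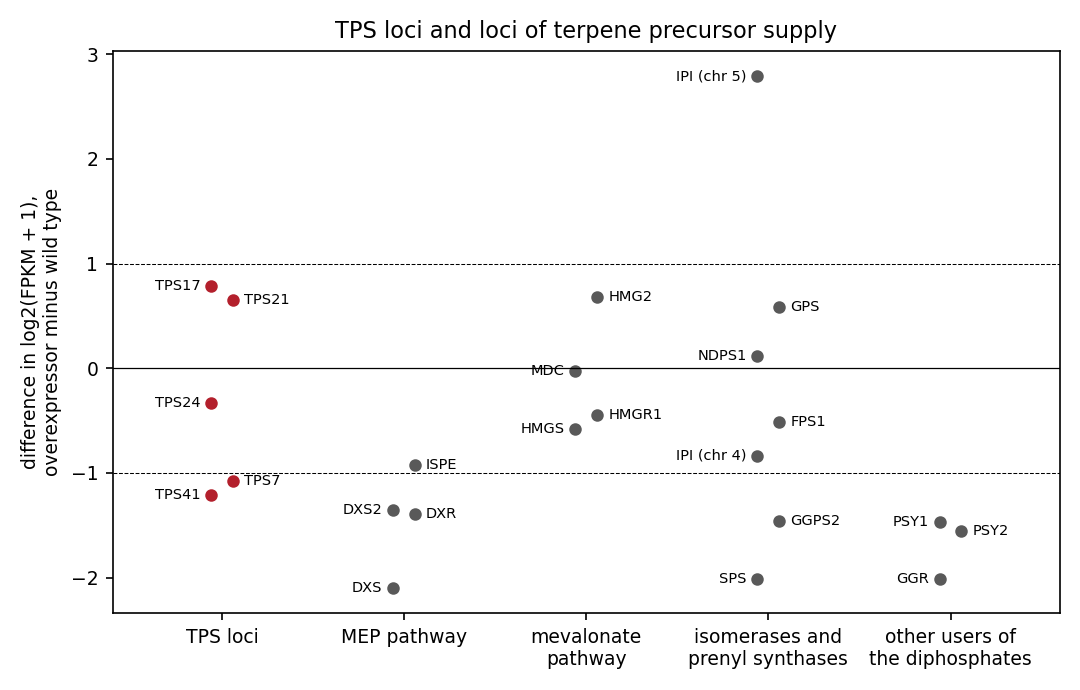
Difference in log2(FPKM + 1), overexpressor minus wild type, of the 5 TPS loci (red) and of the loci found for 4 lists of terpene precursor genes (grey), 1 point per locus, with 2-fold as dashed lines. DXS at −2.10 and IPI on chromosome 5 at 2.79 mark the range of the precursor loci, and the TPS loci run from −1.21 to 0.79.

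Trichome and epidermis markers could hardly be followed, since 2 of 20 listed symbols were found, both lipid transfer protein genes. LTPG1 read 5933 FPKM in wild-type leaf and 6433 FPKM in the overexpressor, and TSW12 read 156 and 547 FPKM, 3.50-fold higher. The summed level of the pair was 6089 and 6980 FPKM. The remaining 18 symbols, among them the methylketone synthase and acylsugar genes of trichomes, were not found under those names. The part of trichome number in the TPS values was not tested.

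Across the 2 libraries, the single-gene loci with a symbol (901 in all) nearest to each member in both log2(FPKM + 1) values were listed as a description. TIV1 (59.5 FPKM in wild type, 28.7 in the overexpressor), DXS2 and CCD1A (52.2 and 27.2) were nearest to TPS41. TCP17 (12.6 and 4.33), EXP18 (13.8 and 4.58) and SLGLR3.4 (10.2 and 6.33) were nearest to TPS7. For TPS24 they were ACI39, HO2 and SLCIPK2, for TPS21 GRAS2, DREB2 and ABZ1, and for TPS17 AADC1A, HXK3 and WIV-1. The distances ran from 0.03 to 0.33 log2 units.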

How the data were processed

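Leaf RNA of wild-type and SlRBZ overexpressing tomato seedlings was measured in 1 library each. Per the labels' protocols, RNA was extracted with TRIzol and libraries followed standard Illumina protocols. TopHat, which aligns spliced reads, is listed in the submitters' processing notes. Its version, the counting tool, strandedness, annotation and genome build were not given in the sources used here. The deposited unit is FPKM by locus, per the file headers, and each column is named by a sample title.

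Members, gene lists and limits were chosen with earlier results of these data known. Every TPS locus was named, with up to 5 loci of each list, neighbours within 50 kb and the 3 nearest symbols in level. From the deposited FPKM, log2(FPKM + 1) differences were computed with Python 3.11.15, pandas 2.3.3 and scipy 1.17.1, over loci with a mean FPKM of 1 or more, and called at 2-fold. Scaling totals came from gene-free loci of 300 to 800 bp: with an offset of 199 bp, values worth under 12 fragments were whole within 0.05 for 90.8% of 1217 in wild type and 90.1% of 584 in the overexpressor. This recovery was tested on simulated data. The 2-fold calls were tested on simulated loci, unchanged or changed well beyond 2-fold, with counting error alone. Those loci were more abundant than TPS7, TPS17 and TPS21, and changes near 2-fold were not simulated. Exact lengths of the spliced loci are unknown, so intervals assume 1 kb. Scalings were split evenly over both libraries. No test between genotypes was possible. The reference gene table is RefSeq's for SLM_r2.1 and was used only for names and for which genes neighbour each other. No sequences were used here.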

Additional observations from a re-analysis of the deposited data

How the results depend on the processing

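As deposited, 2 TPS loci were lower, 0 higher, and their median difference was −0.34. The lower count was 0 at equal upper quartiles, at equal sums without the 100 most abundant gene loci, at equal sums of all loci and at a 3-fold limit. The higher count was 1 at a pseudocount of 0.1 (TPS17), 2 at a 1.5-fold limit, 2 at equal sums without the 100 most abundant gene loci (TPS17 and TPS21) and 5 at equal sums of all loci. The median was −1.08 over the 3 loci with a mean FPKM of 5 or more, −0.71 without the locus that joins several genes, 0.30 at equal sums without the 100 most abundant gene loci and 2.44 at equal sums of all loci. At equal sums of all loci TPS7 (1.505), TPS24 (2.44) and TPS41 (1.64) changed sign. TPS24 was already above 0 at equal sums without the 100 most abundant gene loci (0.30). Fewer loci account for the first 2 of these medians by construction. Shifts between scalings are by construction too, since each scaling applied 1 factor to all loci. In log2 units it was 0.25 at equal upper quartiles, 0.67 without the 100 most abundant gene loci and 2.92 at equal sums of all loci. Why the libraries differ in these measures was not tested. Adding MTS1 and CAHS, chosen after seeing the data, dropping the filter on low values, a pseudocount of 0.5 and the demand for counting intervals that do not overlap left both counts as they were. No paired analysis was possible because each genotype has 1 library. Low fragment counts limit TPS17 and TPS21 most, at 9 and 25 wild-type fragments per kb. The differences cannot be told apart from variation between plants or libraries.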
